A study of Rattus norvegicus with 12 samples.

Results

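Smooth muscle forms a sheath around the secretory acini of the rat ventral prostate, the gland lobe whose size and secretion depend most visibly on testicular androgen. The smooth muscle contractile genes described here are 10 genes of that machinery: Acta2, Actg2, Tagln, Cnn1, Lmod1, Smtn, Myh11, Mylk, Des and Kcnmb1. A gene was included where a probe set carried its symbol as the only annotated one. All 10 were measured, each by 1 probe set, among 14506 genes tested on the array.

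The 12 Affymetrix arrays came from adult male Wistar rats, 90 days old at treatment, in 4 groups of 3. Combined rats were castrated and given 1 dose of 17β-estradiol, 25 mg/kg. Estradiol rats kept their testes and were given the same single dose in corn oil. Castrated rats had their testes removed under ketamine and xylazine, the anaesthesia the labels give for orchiectomy. Control rats kept their testes and were given the corn oil vehicle alone. Tissue was taken after 3 days. The labels mention vehicle for the control rats only, and nothing states whether an array holds the RNA of 1 rat. The p-values therefore measure only how these samples scatter, which may be technical. Castration removes testicular androgen at its source, and a high dose of oestrogen given to an intact male lowers it through the pituitary. The series was made to compare these procedures.

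Contraction in smooth muscle is driven by the sliding of actin filaments against smooth muscle myosin. Calcium and calmodulin activate myosin light chain kinase, which phosphorylates the myosin light chain and so starts the cycle. Proteins on the actin filament and the intermediate filaments that link its anchoring points set how force is carried, and calcium-activated potassium channels oppose contraction by holding the membrane potential negative. Transcription of most of these genes depends on serum response factor, which binds DNA at an element called the CArG box, and on its partner myocardin.

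Promoters, taken as 250 bases before to 50 after the start site in RefSeq annotation of the rat assembly GRCr8, were available for 7 of the 10 genes. Those of the actin gene Acta2 and of Cnn1 and Kcnmb1, the members that passed the test in the comparison of estradiol with control, are shown 5′ to 3′ on the strand of the gene. Acta2 lies at chr1:241172454-241172753 on the minus strand, Cnn1 at chr8:28908187-28908486 on the plus strand and Kcnmb1 at chr10:19061849-19062148 on the plus strand. Capitals mark CArG-like runs, defined as CCNNNNNNGG with at most 1 G or C among the 6 bases written N. The run is palindromic in its fixed letters, so a match on one strand is also a match on the other.
Acta2: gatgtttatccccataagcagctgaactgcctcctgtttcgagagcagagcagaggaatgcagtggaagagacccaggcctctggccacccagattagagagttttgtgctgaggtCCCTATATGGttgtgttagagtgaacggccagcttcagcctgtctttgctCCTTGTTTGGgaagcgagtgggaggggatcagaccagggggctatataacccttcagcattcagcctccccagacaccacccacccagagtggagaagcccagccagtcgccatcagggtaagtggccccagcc
Cnn1: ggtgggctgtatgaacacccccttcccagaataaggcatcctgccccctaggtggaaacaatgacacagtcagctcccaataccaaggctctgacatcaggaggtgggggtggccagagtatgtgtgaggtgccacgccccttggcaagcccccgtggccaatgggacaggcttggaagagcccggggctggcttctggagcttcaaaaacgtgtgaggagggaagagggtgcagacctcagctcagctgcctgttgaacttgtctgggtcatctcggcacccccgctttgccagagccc
Kcnmb1: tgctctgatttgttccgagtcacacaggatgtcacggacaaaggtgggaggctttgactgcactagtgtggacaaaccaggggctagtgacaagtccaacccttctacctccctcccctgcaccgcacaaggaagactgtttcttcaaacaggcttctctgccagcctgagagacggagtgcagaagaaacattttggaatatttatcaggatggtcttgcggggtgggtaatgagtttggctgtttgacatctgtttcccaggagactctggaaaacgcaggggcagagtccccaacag
Acta2 held CArG-like runs at 134 and 84 bases before the start site, and the other 6 promoters held none in this window. Of 33469 rat promoters of the same length, 9.42% held at least 1 such run and 0.846% held 2 or more. An exact CArG box, with only A or T in the core, was in 0 of the 7 promoters and in 1.64% of all. A match is a run of letters and not a measured binding site.

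Levels are given as deposited and read as log2 values, where 1 unit is a doubling. Levels of different genes are not compared because each probe set has its own response. The number of arrays, 3 per group, limits the precision, and over all genes the standard error of a group difference had a median of 0.195. Probasin (Pbsn), a prostatic secretory protein under androgen control, ranged from 4.88 to 7.45 on the combined arrays, 4.82 to 9.71 on the estradiol arrays, 4.37 to 4.96 on the castrated arrays and 10.50 to 11.63 on the control arrays. Scgb2a1, a subunit of prostatein, the main secretory protein of the ventral lobe, ranged from 12.68 to 12.72 on the combined arrays, 12.46 to 12.72 on the estradiol arrays, 12.47 to 12.73 on the castrated arrays and 12.84 to 12.88 on the control arrays. Estradiol arrays 1 and 2 stood apart from all others. Their values had an SD over all probe sets of 1.93 and 2.01, against 2.24 to 2.30 on the other 10 arrays, so the main results that rest on them are given with and without them.

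Across the 4 groups the 10 genes fell into a set whose mean was lowest under estradiol alone and a few that followed another order. The estradiol group had the lowest mean for 7 genes and the control group the highest for 5. In a moderated F test of any difference among the groups, 0 of 10 genes passed at an adjusted p under 0.05, against 5.47% of all genes, with adjusted p between 0.0601 (Cnn1 and Kcnmb1) and 0.969 (Smtn). All p-values here come from limma, adjusted over all 14506 genes. In the order of the 4 means, neighbouring groups had arrays that did not overlap in 3 cases: control above combined for Actg2, combined above estradiol for Mylk and castrated above estradiol for Kcnmb1. How many of all genes had such orders or gaps was not counted, so both are a description.

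**Figure D1:**
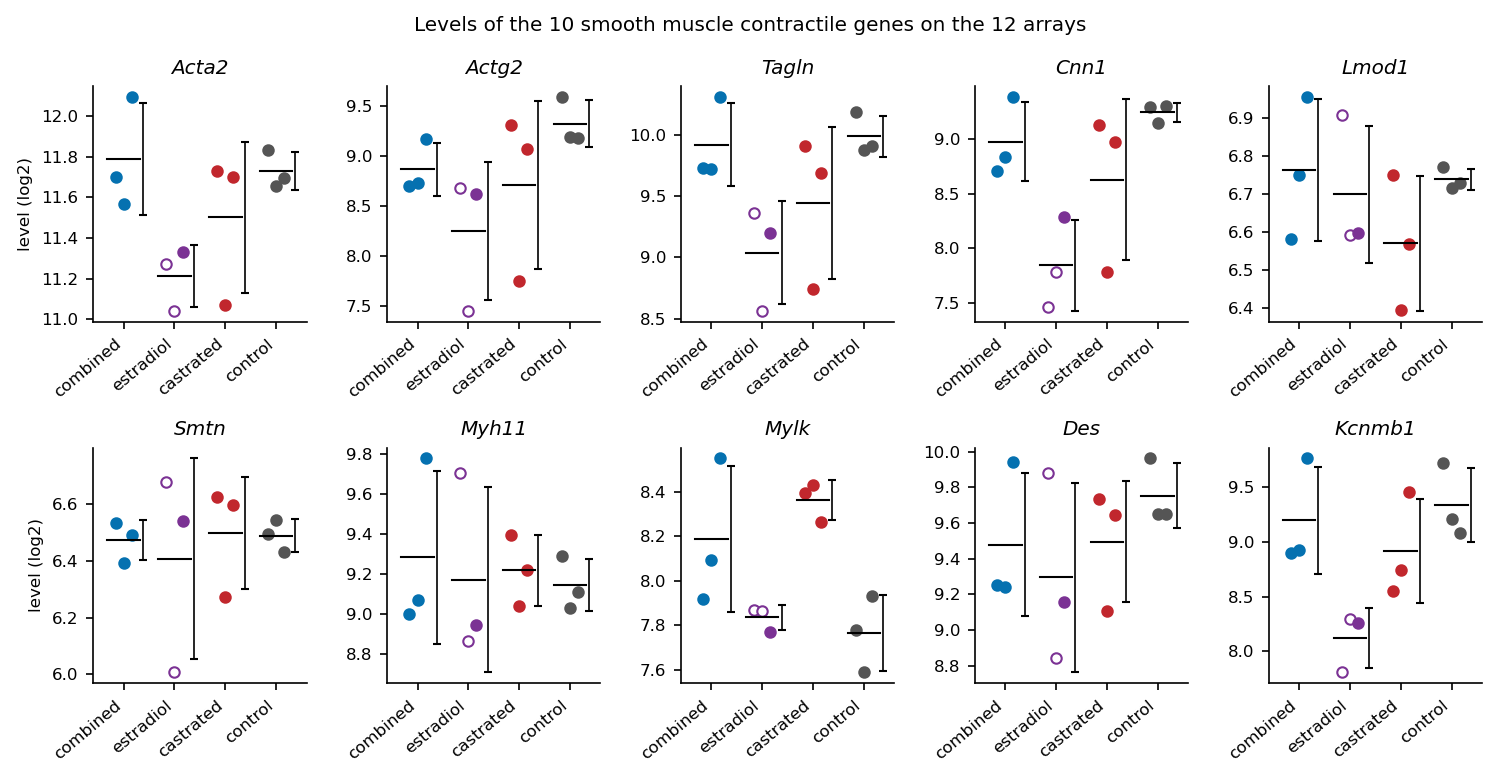
Level of each of the 10 genes (log2, vertical axes, each with its own range) on every array of the combined, estradiol, castrated and control groups, with points for arrays (open for estradiol 1 and 2), a line for the mean and a bar for its SD over 3. Cnn1 and Kcnmb1 are lower on all 3 estradiol arrays than on any control array, and Mylk is higher on all 3 castrated arrays than on any control array.

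The actins of the thin filament come first. Acta2, smooth muscle alpha actin, read 11.70, 11.57 and 12.10 on the combined arrays, 11.27, 11.04 and 11.33 on the estradiol arrays, 11.73, 11.07 and 11.70 on the castrated arrays and 11.84, 11.66 and 11.70 on the control arrays. The 3 estradiol arrays lay below all combined and all control arrays, and castrated array 2 lay among them. Actg2, smooth muscle gamma actin, read 8.70, 8.73 and 9.17 in the combined group, 8.68, 7.45 and 8.62 in the estradiol group, 9.31, 7.75 and 9.07 in the castrated group and 9.59, 9.19 and 9.18 in the control group. Its lowest readings were estradiol array 2 and castrated array 2, more than 1 below the other arrays of their groups. Actin genes have similar coding sequence, and cross-hybridisation between their probe sets was not tested.

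Of the proteins that bind the thin filament, transgelin and calponin had profiles close to those of the actins. Tagln, transgelin or SM22, read 9.73, 9.72 and 10.31 in the combined group, 9.36, 8.56 and 9.20 in the estradiol group, 9.91, 8.74 and 9.69 in the castrated group and 10.18, 9.88 and 9.91 in the control group. All estradiol arrays were below all combined and control arrays. Cnn1, calponin 1, which restrains the myosin motor on actin, read 8.70, 8.84 and 9.39 in the combined group, 7.46, 7.78 and 8.29 in the estradiol group, 9.13, 7.78 and 8.97 in the castrated group and 9.29, 9.15 and 9.30 in the control group. The control arrays lay close together, and the estradiol arrays were all lower by more than 0.8.

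The remaining thin filament genes varied little. Lmod1, leiomodin 1, which nucleates actin filaments, read 6.58, 6.75 and 6.96 in the combined group, 6.91, 6.59 and 6.60 in the estradiol group, 6.75, 6.39 and 6.57 in the castrated group and 6.77, 6.71 and 6.73 in the control group. Smtn, smoothelin, an actin-binding protein of contractile muscle cells, read 6.53, 6.39 and 6.49 in the combined group, 6.68, 6.01 and 6.54 in the estradiol group, 6.62, 6.27 and 6.59 in the castrated group and 6.49, 6.54 and 6.43 in the control group. Groups overlapped for both genes in every comparison with control.

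The motor and its kinase did not share the order of the actins. Myh11, the smooth muscle myosin heavy chain, read 9.0, 9.07 and 9.78 in the combined group, 9.70, 8.87 and 8.95 in the estradiol group, 9.40, 9.04 and 9.22 in the castrated group and 9.29, 9.03 and 9.11 in the control group. The highest readings were combined array 3 and estradiol array 1, and the groups overlapped throughout. Mylk, myosin light chain kinase, read 7.92, 8.09 and 8.55 in the combined group, 7.87, 7.87 and 7.77 in the estradiol group, 8.39, 8.43 and 8.26 in the castrated group and 7.78, 7.59 and 7.93 in the control group. It was the member whose castrated arrays were all above the controls.

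Des encodes desmin, the intermediate filament of muscle cells. It read 9.25, 9.24 and 9.94 in the combined group, 9.88, 8.84 and 9.16 in the estradiol group, 9.73, 9.11 and 9.65 in the castrated group and 9.96, 9.65 and 9.65 in the control group. Estradiol array 1 lay among the controls while arrays 2 and 3 lay below them. Kcnmb1, the beta 1 subunit that tunes the large-conductance calcium-activated potassium channel of smooth muscle, read 8.90, 8.93 and 9.76 in the combined group, 7.81, 8.29 and 8.26 in the estradiol group, 8.55, 8.74 and 9.45 in the castrated group and 9.72, 9.21 and 9.08 in the control group. Its estradiol arrays were below every array of every other group.

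Intact rats given estradiol were compared with controls to see what a high oestrogen dose changed with the testes in place. Of the 10 genes 2 fell, Cnn1 and Kcnmb1, and 0 rose, against 7.99% of all genes changed (5.48% fell and 2.51% rose). Cnn1 averaged 7.84 ± 0.42 in the estradiol group and 9.24 ± 0.08 in the control group (SD, n = 3), a log2 difference of -1.40 ± 0.32 (SE, 95% interval -2.08 to -0.72), or 2.64-fold lower (adjusted p = 0.0183). Kcnmb1 averaged 8.12 ± 0.27 in the estradiol group and 9.34 ± 0.34 in the control group, a difference of -1.22 ± 0.28 (-1.83 to -0.60), or 2.32-fold lower (adjusted p = 0.0215). A calponin that binds the filament and a channel subunit of the membrane were thus the members past the threshold.

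Besides these, 3 genes had all estradiol arrays below all controls without passing. Tagln differed by -0.95 ± 0.29 (adjusted p = 0.0622), Actg2 by -1.07 ± 0.38 (0.0914) and Acta2 by -0.52 ± 0.20 (0.109). So 5 of 10 genes had estradiol arrays wholly below the controls, where 15.1% of all genes did, and the same 5 had an unadjusted p under 0.05, where 30.2% of all genes did in either direction. Des differed by -0.46 ± 0.27 (adjusted p = 0.256). For Smtn (-0.08 ± 0.18), Lmod1 (-0.04 ± 0.16), Myh11 (0.03 ± 0.24) and Mylk (0.07 ± 0.17) the difference was smaller than its error. The median of the 10 differences was -0.49, and that of all genes was 0.07. In whole tissue, fewer muscle cells and less RNA per muscle cell cannot be told apart, nor can muscle of the acini and of vessels.

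**Figure D2:**
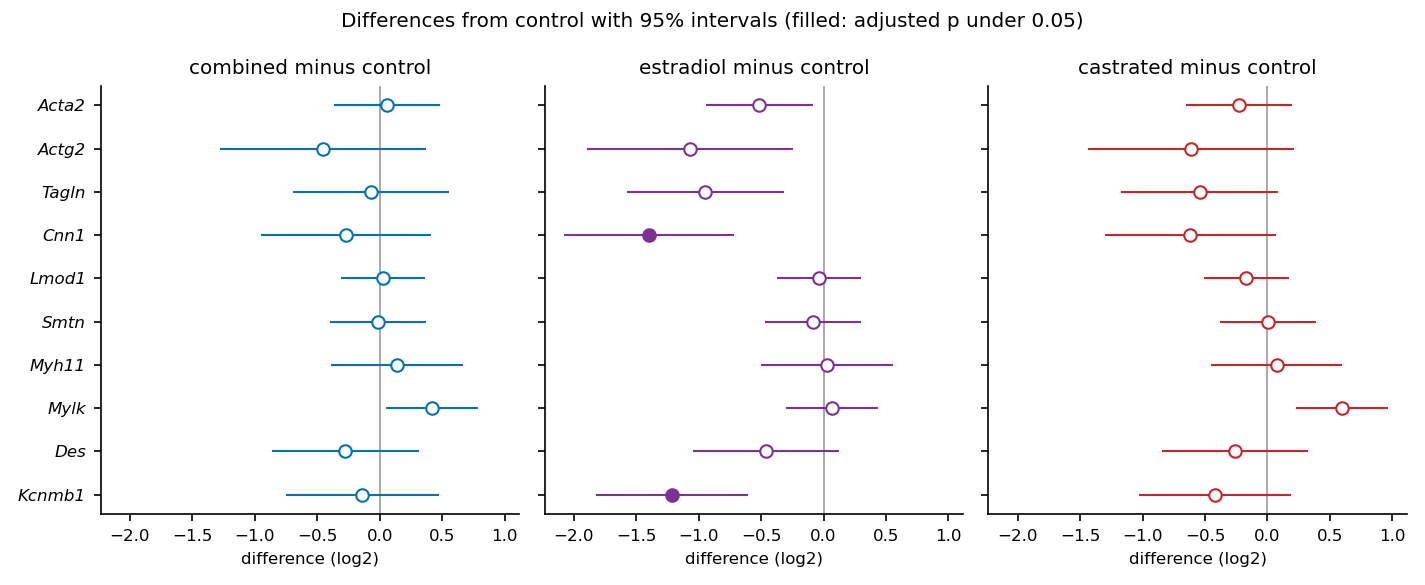
Log2 differences of the 10 genes for the combined, estradiol and castrated groups against control, with 95% intervals, filled where the gene passed at an adjusted p under 0.05. Cnn1 (-1.40) and Kcnmb1 (-1.22) under estradiol are the filled points.

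The estradiol replicates differed in which genes were low. Estradiol array 1 was below all 3 controls for 5 of 10 genes (37.4% of all genes) and above them for 3, Lmod1, Smtn and Myh11 (49.8%). Estradiol array 2 was below all controls for 9 genes, the exception being Mylk (40.3% of all genes). Estradiol array 3, whose spread of values was like that of the other groups, was below for 8 genes, the exceptions being Smtn and Mylk (30.3%), and above for 0 (34.8%). The median difference from the control mean was -0.18 on array 1, -0.80 on array 2 and -0.50 on array 3, while the median over all genes was 0.13, 0.01 and 0.02.

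Cnn1 lay below the control mean by -1.78, -1.46 and -0.95 on estradiol arrays 1, 2 and 3, and Kcnmb1 by -1.53, -1.04 and -1.07. The compressed range of arrays 1 and 2 moved with level. The 1451 genes of the level class that holds Actg2, Cnn1 and Kcnmb1 had medians of -0.57, -0.23 and 0.03 on the 3 arrays, and the class that holds Acta2, Tagln, Myh11 and Des had -0.72, -0.26 and -0.005. The class with the lowest levels had 0.61, 0.53 and -0.04. On array 3, where these class medians were near 0, Cnn1, Kcnmb1, Tagln (-0.79), Actg2 (-0.70), Des (-0.60) and Acta2 (-0.40) were all below the 3 controls. With array 3 as the lone estradiol array, its spread assumed to be like that of the other groups, 0 of 10 genes passed, against 5.05% of all genes (adjusted p = 0.262 for Cnn1 and 0.162 for Kcnmb1).

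The calls also depended on which other arrays entered the fit and on how arrays were scaled or weighted. Without control 1 or without control 2, 0 genes passed, where 2.98% and 2.69% of all genes did, and without control 3 Kcnmb1 alone did (2.98%). Without estradiol 3 the genes that passed were Actg2, Tagln, Cnn1 and Kcnmb1, but so did 36.7% of all genes, a share close to 4 of 10. Without castrated 2 the same 4 passed, where 7.91% of all genes did. With quantile normalization Cnn1 passed (-1.18, adjusted p = 0.0347) and Kcnmb1 did not (-0.98, adjusted p = 0.0528). With array quality weights Kcnmb1 did not pass either (-1.01, adjusted p = 0.111), while Actg2, Tagln and Cnn1 did, beside 15.9% of all genes.

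**Figure D3:**
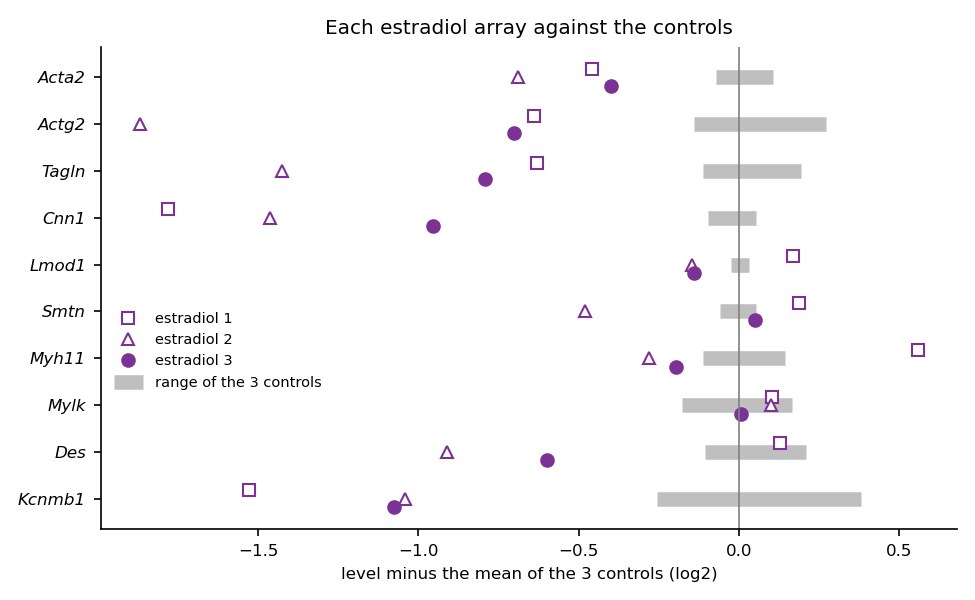
Level of each gene on estradiol arrays 1, 2 and 3 minus the mean of the 3 controls (log2, horizontal axis), with a grey bar for the range of the controls. All 3 arrays lie left of the control range for Acta2, Actg2, Tagln, Cnn1 and Kcnmb1, and estradiol 1 lies right of it for Lmod1, Smtn and Myh11.

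Castrated rats were compared with controls to see what loss of the testes changed. None of the 10 genes passed by limma, against 5.54% of all genes, and 1 had an unadjusted p under 0.05, against 16.1% of all genes. Mylk came nearest, with 8.36 ± 0.09 in the castrated group and 7.77 ± 0.17 in the control group (SD, n = 3). Its difference was 0.60 ± 0.17 (SE, 95% interval 0.23 to 0.97), or 1.51-fold higher (adjusted p = 0.0618), with all 3 castrated arrays above all 3 controls, as for 18.8% of all genes (12.3% under estradiol and 21.1% under the combined treatment). It passed without estradiol arrays 1 and 2 (adjusted p = 0.0232), where 16.6% of all genes did.

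The other contractile genes had smaller or more scattered differences after castration. Cnn1 differed by -0.62 ± 0.32 (adjusted p = 0.385), with all castrated arrays below the controls, as for 13.7% of all genes. Actg2 differed by -0.61 ± 0.38, Tagln by -0.54 ± 0.29, Kcnmb1 by -0.42 ± 0.28, Des by -0.26 ± 0.27 and Acta2 by -0.23 ± 0.20, with adjusted p of 0.418 or more. Lmod1 (-0.17), Smtn (0.01) and Myh11 (0.07) were within about 1 standard error of 0. The median of the 10 was -0.24, against 0.009 over all genes.

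Several of these differences were smaller without castrated array 2. That array was below both other castrated arrays for 8 of 10 genes, with a median gap of -0.46 to the mean of the other 2, where 42% of all genes were below both and the median gap was -0.01. Without it the difference from control was -0.13 for Actg2, -0.19 for Tagln, -0.19 for Cnn1, -0.01 for Acta2 and -0.06 for Des, while Mylk stayed at 0.56 and Kcnmb1 at -0.33. The median of the 10 was then -0.07.

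Castrated rats given estradiol were compared with controls to see both treatments together. None of the 10 genes passed by limma, against 4.32% of all genes, and 1 had an unadjusted p under 0.05, against 14.7% of all genes. Mylk again had the largest positive difference, 8.19 ± 0.33 in the combined group and 7.77 ± 0.17 in the control group, or 0.42 ± 0.17 (adjusted p = 0.244). Cnn1 differed by -0.27 ± 0.32 (95% interval -0.95 to 0.41) and Kcnmb1 by -0.14 ± 0.28 (-0.75 to 0.47). Actg2 was -0.45 ± 0.38 with all combined arrays below the controls, as for 15.8% of all genes. The other 6 differences lay between -0.28 (Des) and 0.14 (Myh11), and the median of the 10 was -0.04, against 0.04 over all genes.

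Combined array 3 was above both other combined arrays for 9 of 10 genes, with a median gap of 0.57 (31.2% of all genes were above both). It held the highest reading of all 12 arrays for 7 genes. Without it Cnn1 differed from control by -0.47, Kcnmb1 by -0.42, Des by -0.51 and Mylk by 0.24, and 0 genes passed with or without it.

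The treated groups were then set against each other. Combined and estradiol rats share the estradiol dose and differ in the testes. Between combined and estradiol, all 10 genes had a higher mean in the combined group (Lmod1, Smtn and Myh11 a lower one under quantile normalization), with a median of 0.46 (0.02 over all genes). None passed, by limma, where 0% of all genes did, and 4 genes had an unadjusted p under 0.05, where 18.9% of all genes did. Cnn1 averaged 8.97 ± 0.36 in the combined group and 7.84 ± 0.42 in the estradiol group, a difference of 1.13 ± 0.32 (95% interval 0.45 to 1.81), and Kcnmb1 differed by 1.08 ± 0.28 (0.47 to 1.69). Tagln differed by 0.88 ± 0.29 and Acta2 by 0.57 ± 0.20, and the adjusted p of these 4 was 0.241. For 6 genes, these 4 with Actg2 (0.62) and Mylk (0.35), all combined arrays were above all estradiol arrays, as for 9.04% of all genes. Without estradiol arrays 1 and 2 the differences were 0.69 ± 0.42 for Cnn1, 0.94 ± 0.39 for Kcnmb1, 0.72 for Tagln, 0.46 for Acta2 and 0.25 for Actg2, and none passed (adjusted p = 0.999 each). Without estradiol 3, Acta2, Cnn1 and Kcnmb1 passed, near the share of all genes that did (28.6%).

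Between combined and castrated rats, which share the loss of the testes and differ in estradiol, 0 of 10 genes passed and 0 had an unadjusted p under 0.05, where 0% and 1.05% of all genes did. The differences ran from -0.17 ± 0.17 (Mylk) to 0.47 ± 0.29 (Tagln), with 0.35 ± 0.32 for Cnn1 (95% interval -0.33 to 1.03) and 0.28 ± 0.28 for Kcnmb1 (-0.33 to 0.89). Without castrated array 2 the difference was 0.12 for Tagln and -0.07 for Cnn1. Between estradiol and castrated rats 0 genes passed (0% of all genes) and 3 had an unadjusted p under 0.05, where 27.3% of all genes did. These were Kcnmb1 (-0.79 ± 0.28, adjusted p = 0.145), Cnn1 (-0.78 ± 0.32, 0.159) and Mylk (-0.53 ± 0.17, 0.143). For Kcnmb1 and Mylk all estradiol arrays were below all castrated arrays, as for 9.21% of all genes. Without estradiol arrays 1 and 2 the difference was -0.34 ± 0.42 for Cnn1, -0.65 ± 0.39 for Kcnmb1 and -0.59 ± 0.22 for Mylk. Without castrated array 2 it was -1.21 for Cnn1.

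Whether the effect of estradiol differed between castrated and intact rats was tested as an interaction, the difference of combined from castrated minus that of estradiol from control. None of the 10 genes passed, where 1.1% of all genes did, and 5 had an unadjusted p under 0.05, where 14.2% of all genes did. The term was 1.75 ± 0.45 for Cnn1 (95% interval 0.78 to 2.71, adjusted p = 0.0925), 1.50 ± 0.40 for Kcnmb1 (0.63 to 2.36, 0.106), 1.42 ± 0.41 for Tagln (0.135), 1.23 ± 0.54 for Actg2 (0.335) and 0.80 ± 0.28 for Acta2 (0.22). It was -0.24 ± 0.24 for Mylk and 0.44 for Des, 0.23 for Lmod1, 0.06 for Smtn and 0.04 for Myh11. Without estradiol arrays 1 and 2 the term was 1.30 for Cnn1 (adjusted p = 0.239) and 1.36 for Kcnmb1 (0.18).

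The genes varied together from array to array. Over the 12 arrays the 45 pairs of genes had a median Pearson r of 0.54, from -0.05 to 0.97, and 10 pairs were over 0.8. The median over pairs after removing group means was 0.60. Over the 10 arrays without estradiol 1 and 2 it was 0.65 before and 0.78 after removing group means. Arrays share RNA quality, tissue composition and scan, so these values are a description. Tagln and Acta2 followed the mean of the other 9 genes most closely (r = 0.96 each), then Actg2 (0.88), Cnn1 (0.82), Des (0.80) and Kcnmb1 (0.66). Lmod1 (0.57), Smtn (0.56) and Myh11 (0.51) followed it less, and Mylk hardly (0.15). Over the 10 arrays the order changed. Acta2 (0.95), Tagln (0.94), Des (0.93), Cnn1 (0.92), Lmod1 (0.84) and Actg2 (0.82) were then highest, followed by Myh11 (0.75), Kcnmb1 (0.68), Smtn (0.44) and Mylk (0.005).

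**Figure D4:**
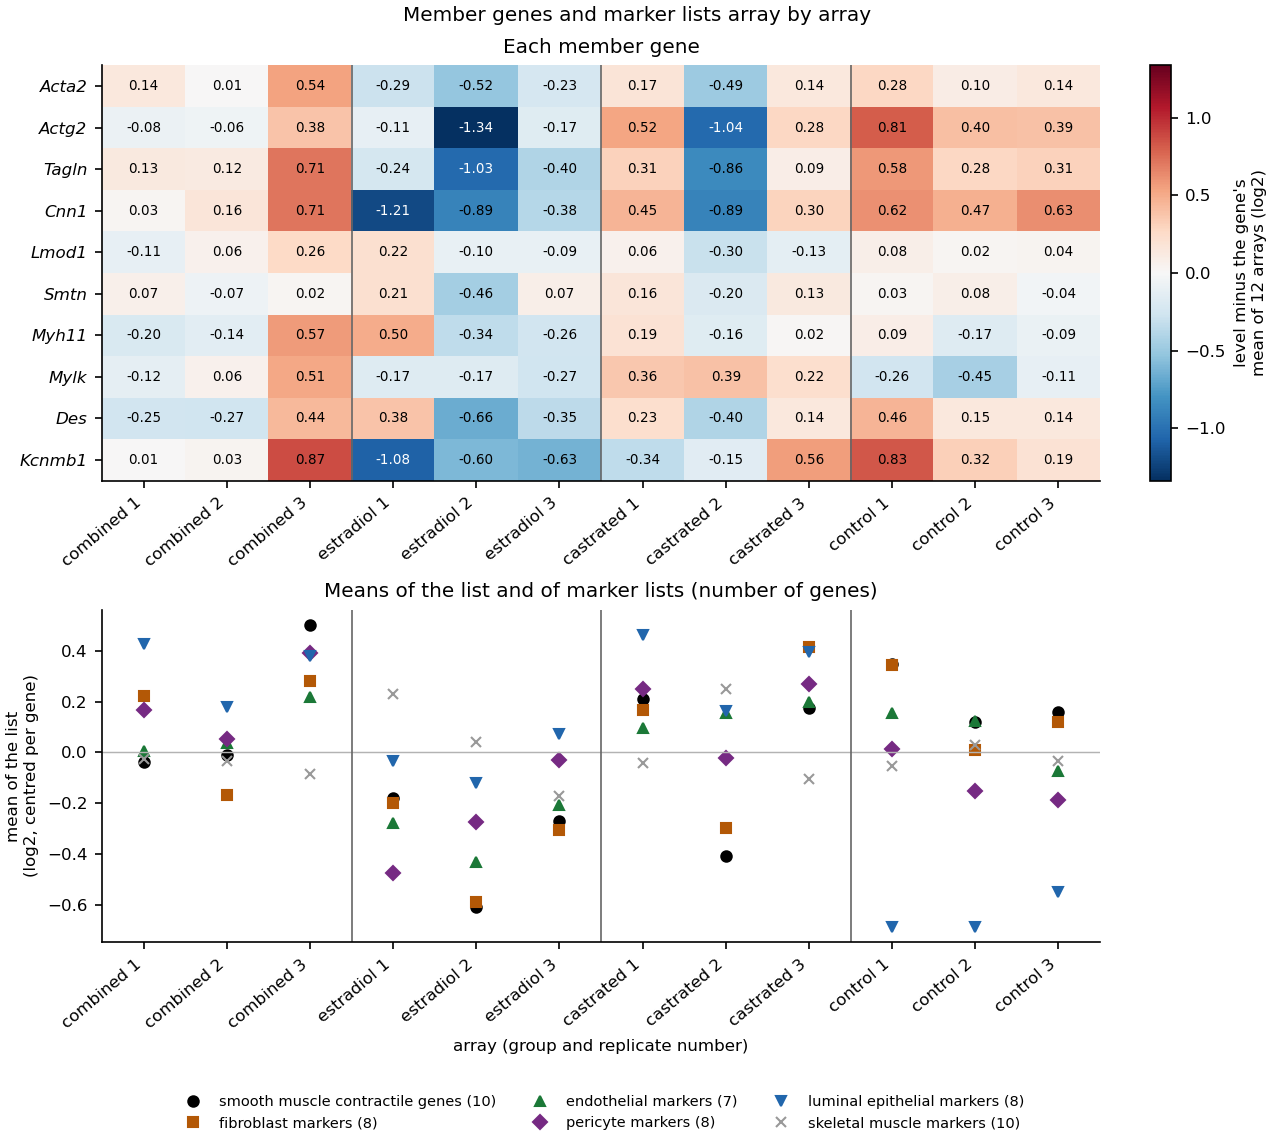
Top, each gene's level on each array minus its mean over 12 arrays (log2, colour and number); bottom, the mean of these centred values for the 10 genes and for lists of cell type markers, with 1 point per list and array. Estradiol array 2 (-0.61) and castrated array 2 (-0.41) have the lowest means of the 10 genes and combined array 3 (0.50) the highest, and the fibroblast markers are at -0.59, -0.30 and 0.28 on those arrays.

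Within groups the 10 genes had a median SD of 0.33 in the combined, 0.39 in the estradiol, 0.36 in the castrated and 0.15 in the control group, against 0.12, 0.36, 0.16 and 0.12 over all genes. Markers of fibroblasts, the other main cell of the stroma, moved with the contractile genes on several arrays. The centred mean of 8 fibroblast markers was 0.22, -0.17 and 0.28 on the combined arrays, -0.20, -0.59 and -0.31 on the estradiol arrays, 0.17, -0.30 and 0.41 on the castrated arrays and 0.35, 0.01 and 0.12 on the control arrays. That of the 10 contractile genes was -0.04, -0.01 and 0.50 on the combined arrays, -0.18, -0.61 and -0.27 on the estradiol arrays, 0.21, -0.41 and 0.18 on the castrated arrays and 0.35, 0.12 and 0.16 on the control arrays. Both lists were negative on every estradiol array, but this was not particular to them. Endothelial markers were at -0.28, -0.43 and -0.21 on those arrays and pericyte markers at -0.47, -0.27 and -0.03. The regulators of contraction described below were at -0.32, -0.02 and -0.01.

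Under estradiol, 0 of 8 fibroblast markers passed (median -0.58), and 5 had an unadjusted p under 0.05, where 30.2% of all genes did. Of 7 endothelial markers 1 fell (Pecam1, -0.58), and of 8 pericyte markers 1 fell (Rgs5, -0.86). Without estradiol arrays 1 and 2 none of these markers passed. All 8 fibroblast differences were below 0, and their median was -0.41 without estradiol arrays 1 and 2. Of the 7 endothelial differences 6 were below 0, with a median of -0.37 (-0.41 without those arrays). Summed over the list, fibroblast markers ranged from 58.6 to 61.8 on the estradiol arrays and 63.4 to 66.1 on the control arrays (summed log2 levels of 8 genes). Endothelial markers summed to 39.6 to 41.2 on the estradiol arrays and 42.1 to 43.7 on the control arrays (7 genes). Pericyte markers overlapped, at 53.8 to 57.3 on the estradiol arrays and 56.1 to 57.7 on the control arrays (8 genes). Their median difference under estradiol was -0.10, with 3 of 8 above 0, and 0.06 without estradiol arrays 1 and 2. Of 8 luminal epithelial markers, 4 rose under estradiol, 6 after castration and 7 under the combined treatment, among them the keratin Krt19 (1.82 in the combined, 1.36 in the estradiol and 1.74 in the castrated group). Of 8 macrophage markers, 3 rose in the combined, 1 in the estradiol and 6 in the castrated group. Over all genes 4.32%, 7.99% and 5.54% passed in these 3 groups. All 8 macrophage differences were above 0 in each group, with medians of 1.34 in the combined, 0.68 in the estradiol and 1.75 in the castrated group. Without estradiol arrays 1 and 2 the estradiol median was 1.69 for macrophage markers and 0.73 for luminal markers (0.62 with them). Of 10 skeletal muscle markers, which a dissection could carry in, 1 fell under estradiol (Acta1, -1.03, not past the threshold without estradiol arrays 1 and 2). With all arrays in the fit 0 passed in the other groups, and Acta1 differed by -0.91 after castration. Most of the list went the other way from Acta1, with 8 of 10 above 0 in the combined, 7 in the estradiol and 7 in the castrated group. The medians were 0.06, 0.17 and 0.18, and the estradiol median was -0.07 without estradiol arrays 1 and 2. Of 6 nerve markers Nefl fell in all 3 groups, and the list as a whole differed less. The median of the 6 was -0.21 in the combined, -0.03 in the estradiol and -0.13 in the castrated group. Differences above 0 numbered 1, 3 and 1 in these groups. With all arrays in the fit 0 of 5 basal epithelial markers passed. Their differences in the combined group had a median of 0.64 and a maximum of 1.24. The part of cell composition in the differences of the contractile genes was not tested.

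Other contractile and cytoskeletal genes were counted from a list of 26, of which 21 were measured. In the combined group 3 rose and 0 fell: Lpp, a focal adhesion protein (1.10), Cnn3, the widely expressed acidic calponin (0.99), and Vcl, vinculin (0.65). Under estradiol 2 rose, Pdlim3, a protein of the alpha-actinin anchoring points (1.32), and Lpp (1.19), and 1 fell, Csrp1, a LIM protein of muscle cells (-0.65, adjusted p = 0.049). After castration the same 3 as in the combined group rose, Cnn3 (1.19), Lpp (1.0) and Vcl (0.77), and 0 fell. The median of the 21 was 0.11 in the combined, -0.14 in the estradiol and 0.01 in the castrated group. Of all genes, 4.32%, 7.99% and 5.54% passed in these groups. Lpp, Cnn3 and Vcl are also expressed outside muscle. Csrp1 passed in 7 of 21 alternatives, and without estradiol arrays 1 and 2 it did not (-0.30). In that fit Cnn3 differed by 1.07 under estradiol. Pdlim3 differed by 0.75 and Tagln2 by 0.54 in the combined group, neither past the threshold with all arrays.

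Regulators of contraction and of its transcription were counted from 26 genes, of which 22 were measured. Atp2a2, the calcium pump of the sarcoplasmic and endoplasmic reticulum, fell in all 3 groups, by -0.86 ± 0.17 in the combined (adjusted p = 0.0115), -0.95 ± 0.17 in the estradiol (0.00515) and -0.78 ± 0.17 in the castrated group (0.0173). Under estradiol Ppp1r12a, the targeting subunit of myosin phosphatase (-0.89), and Adra1a, the alpha 1A adrenergic receptor through which sympathetic nerves contract the prostate (-0.64, adjusted p = 0.0478), also fell. In the combined and castrated groups no regulator besides Atp2a2 passed, and 0 of 22 rose in any group with all arrays in the fit. Of all genes, 4.32% passed in the combined, 7.99% in the estradiol and 5.54% in the castrated group. After castration Pde5a, a cyclic GMP phosphodiesterase, differed by 0.60 and Kcnma1, the pore of the channel that Kcnmb1 tunes, by 0.52. Ppp1cb, the catalytic subunit of myosin phosphatase, differed by 0.35 after castration and 0.43 in the combined group. None of these differences passed with all arrays in the fit. Without estradiol arrays 1 and 2 none of the 3 regulators that had fallen under estradiol passed there. Serum response factor (Srf) and its partner myocardin (Myocd) were measured and did not pass in any comparison with control.

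Genes outside all lists whose profile was most like the mean of the 10 were named by Pearson correlation. Over the 12 arrays these were Lims2 (r = 0.958), Zcchc24 (0.953), Ehd2 (0.94), Slit3 (0.936), Ltbp4 (0.924) and Map1b (0.923). Over the 10 arrays without estradiol 1 and 2 they were Lims2 (0.961), Irag1 (0.943), Zcchc24 (0.941), Tgfb1i1 (0.925), Cavin3 (0.923) and Adamts7 (0.923). Lims2 and Zcchc24 were in both sets, while Irag1 (0.649) and Adamts7 (0.2) were much less alike over the 12 arrays.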

How the data were processed

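Total RNA of ventral prostate was hybridised to Affymetrix arrays, 12 in all. Per the submitters' processing notes, values were made with Affymetrix Expression Console, version not given. The deposited values were read as log2 levels per probe set because of their range; no source used here gives the normalization, log base or genome build. Of 29214 probe sets, 15310 had 1 gene symbol, 323 several and 13581 none. Where a gene had several probe sets (527 genes), the probe set with the highest 12-array mean stood for it, giving 14506 genes. The array medians lay between 5.53 and 5.76.

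Groups follow the sample titles. A mean per group was fitted over all 12 arrays by lmFit and eBayes of limma 3.58.1, run in R 4.3.3 (8 residual and 5.29 prior degrees of freedom), and Benjamini-Hochberg adjustment of the 2-sided p-values ran over all genes. A gene passed, and is said to have risen or fallen, at an adjusted p under 0.05. There were 7 comparisons: each treatment against control, the treatments against each other, and the interaction. Comparisons with control share the control arrays. The fit was checked on simulated data holding genes of known change. The simulated arrays had the same spread in every group and none was compressed, so this check does not cover estradiol arrays 1 and 2. Alternatives were array centring, quantile normalization, a filter on dim genes, the compared groups alone, leaving out estradiol arrays 1 and 2, array quality weights, the replicate number as a block, the mean of probe sets, a trended prior and each array left out.

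Genes named are all 10 members, up to 4 genes that passed with the largest differences from the 2 lists of other contractile genes and of regulators, and the 6 genes most like the members in profile. Of the lists, Pecam1, Rgs5, Krt19, Acta1 and Nefl, and also Srf, Myocd, Tagln2, Pde5a, Kcnma1 and Ppp1cb, were named after their values were seen. The members, lists and tests were chosen with earlier results of these data known.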

Additional observations from a re-analysis of the deposited data

Results flagged for a closer look

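Lpp, a focal adhesion protein, comes from the list of other contractile and cytoskeletal genes. With all arrays in the fit it was the gene of those named whose response to estradiol differed between castrated and intact rats. The interaction was -1.08 ± 0.22 (log2, SE, limma adjusted p = 0.0355). It read 8.96, 8.87 and 9.28 on the combined arrays, 9.15, 9.0 and 9.21 on the estradiol arrays, 8.86, 9.08 and 8.85 on the castrated arrays and 8.10, 7.95 and 7.75 on the control arrays. All treated arrays lay above all controls and overlapped among the treated groups. Estradiol differed from control by 1.19, and combined from castrated by 0.10 (adjusted p = 1). The interaction passed in 9 of 20 alternatives, with values from -1.24 to -0.99 and adjusted p from 0.0142 to 0.131. Without estradiol arrays 1 and 2 it was -1.18 for Lpp, and -1.27 for Cnn3 from the same list.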

How the results depend on the processing

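Direction and side of the threshold were examined for each of the 10 genes in 7 comparisons under 21 alternatives (20 for the interaction), 1460 values in all. Of these 1347 kept both, 27 passed where the reported value did not, 10 lost the call and 76 changed sign, all 76 of differences that had not passed. The cause of these changes was not tested. With 3 arrays per group and no detection calls used here, how far each probe set stood above background was not assessed.

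For castrated against control the count of 0 genes changed became 1, Mylk, with the genes with the lowest mean levels left out, with only the compared groups, without estradiol arrays 1 and 2 and with array quality weights (8.04%, 12.9%, 16.6% and 26.1% of all genes passed in these fits), and was 0 to 1 with each array left out. For estradiol against control the count of 2 became 1, Cnn1, under quantile normalization (6.76% of all genes) and with only the compared groups (1.36%), 0 without estradiol arrays 1 and 2 (5.05%), 3 with array medians centred (Tagln, Cnn1 and Kcnmb1, 9.02%) and with array quality weights (Actg2, Tagln and Cnn1, 15.9%), and 0 to 4 with each array left out. With the replicate number as a block it was 4 (Actg2, Tagln, Cnn1 and Kcnmb1, 8.65%). The labels do not say that a number pairs samples. After removing group means, same-numbered arrays correlated at -0.156 to 0.284 (median 0.072). Arrays with different numbers correlated at -0.248 to 0.285 (median -0.025), and the own number was best in 21 of 36 cases. What a shared number stands for was not tested, and the main fit does not use it. The block moved no other count. Counts for combined against control and against castrated stayed at 0 in all alternatives. For combined against control, from 1.83% (without control 2) to 28.5% (array quality weights) of all genes passed. For combined against castrated the highest share was 0.0896%, with array quality weights. For combined against estradiol the count was 0 to 3 with each array left out, the 3 without estradiol 3 (28.6% of all genes). For estradiol against castrated it was 2 with array weights (11.2%) and 0 to 1 with each array left out, the 1 without estradiol 3 (37.3%). For the interaction it was 2 with array weights (7.25%) and 0 to 2 with each array left out, the 2 without estradiol 3 (11.6%). The median over the genes for combined against castrated was -0.08 with array weights.

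Signs changed in small differences. Centring array medians gave -0.033 for Lmod1 in combined against control, and -0.094 for Myh11 and -0.051 for Mylk in estradiol against control. Quantile normalization gave -0.033 for Lmod1 in combined against control, 0.021 for Des in combined against castrated, -0.077 for Lmod1, -0.0029 for Smtn and -0.064 for Myh11 in combined against estradiol, 0.17 for Myh11 and 0.010 for Des in estradiol against castrated, 0.044 for Lmod1 in estradiol against control, -0.031 for Smtn in castrated against control, and -0.14 for Myh11 in the interaction. Leaving out estradiol arrays 1 and 2 gave -0.068 for Smtn in combined against estradiol, 0.043 for Smtn in estradiol against castrated, 0.051 for Smtn and -0.20 for Myh11 in estradiol against control, and -0.076 for Smtn in the interaction. Array quality weights gave -0.051 for Lmod1 and 0.010 for Smtn in combined against control, -0.26 for Actg2, -0.086 for Cnn1, -0.11 for Myh11 and -0.049 for Kcnmb1 in combined against castrated, and -0.15 for Myh11 in estradiol against control.

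With each array left out in turn, these ranges crossed 0. In combined against control they were -0.095 to 0.17 for Acta2, -0.42 to 0.052 for Kcnmb1, -0.072 to 0.12 for Lmod1, -0.11 to 0.28 for Myh11, -0.046 to 0.022 for Smtn and -0.27 to 0.031 for Tagln. In combined against castrated they were -0.32 to 0.46 for Actg2, -0.074 to 0.60 for Cnn1, -0.25 to 0.10 for Des, -0.00085 to 0.55 for Kcnmb1, -0.18 to 0.20 for Myh11 and -0.14 to 0.039 for Smtn. In combined against estradiol they were -0.049 to 0.48 for Des, -0.033 to 0.17 for Lmod1, -0.14 to 0.38 for Myh11 and -0.14 to 0.20 for Smtn. In estradiol against castrated they were -0.49 to 0.025 for Des, -0.31 to 0.11 for Myh11 and -0.22 to 0.11 for Smtn. In estradiol against control they were -0.14 to 0.015 for Lmod1, -0.24 to 0.18 for Myh11, -0.018 to 0.15 for Mylk and -0.22 to 0.12 for Smtn. In castrated against control they were -0.015 to 0.16 for Myh11 and -0.056 to 0.12 for Smtn. In the interaction they were -0.21 to 0.30 for Myh11 and -0.14 to 0.19 for Smtn.

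The alternatives for genes named from the other lists were added after seeing the data: of 41 such calls, 18 held in all alternatives and 0 changed sign.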
